A study of Drosophila melanogaster with 2 samples.

Results

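Of 2322 dm6 peaks of Trachealess (Trh) tagged with GFP that passed the authors' comparison of replicates by irreproducible discovery rate (IDR), 260 peaks (11.2%) were intergenic and away from promoters. A peak was counted here when its summit lay over 500 bp from every annotated transcription start site (TSS) and outside the span of every annotated transcript, transposable elements not counted as transcripts. The other peaks comprised 1280 within 500 bp of a TSS, called promoter peaks, and 782 inside a transcript. The rule used position alone and no signal. Members just inside the distance limit lay 501, 502, 510, 510 and 510 bp from a TSS, with signal values of 147, 117, 89.6, 166 and 313. Examples of excluded summits lay at 485, 488, 489, 489 and 490 bp, with signal values of 199.6, 89.9, 95.3, 96.6 and 123. Other excluded summits were closer to the limit, up to 500 bp from a TSS.

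The chromatin came from whole Drosophila melanogaster embryos, 0 to 24 h old and of pooled sexes, from a line that stably carries trh fused at its C-terminal end to GFP. Sonicated chromatin was immunoprecipitated with anti-GFP. Biological replicates 1 and 3 of this single group were available, with no second genotype, age or treatment, and the lists of both were called against the same control. A whole embryo over this age range mixes tissues and stages, so neither the cells nor the time at which a site was occupied can be read from these peaks. The values are per-peak signal scores from the authors' peak caller, compared within a list only, and the sequencing depth behind them is unknown.

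Trh is a bHLH-PAS transcription factor that acts as a dimer with Tango, binds sequences with an ACGTG core, and starts the development of the tracheal tubes, the salivary ducts and the filzkörper of the posterior spiracles. Intergenic sequence in Drosophila holds many of the enhancers of developmental genes, alongside insulators and other elements, and an enhancer may act on a gene that is not its nearest neighbour. Nearest genes are therefore given below as positions, not as targets.

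Windows from among the strongest intergenic peaks are shown first. None of the 15 strongest members held the ACGTG core within 50 bp of its summit, but only 7.31% of all members did, so this does not set them apart. Each line gives the protein-coding genes to the left and right, the dm6 interval reaching 50 bp to either side of the summit, and the plus strand of the release 6 genome (RefSeq copy) read 5′ to 3′. Capitals mark CACCTG (an E-box of the Snail type) and GAGAG (GAGA factor type), which overlap by a base in the mtSSB to tara window and stand there in their reverse complements. In the jp to brwl window capitals mark GCGCCACCT, part of the sequence bound by the insulator protein CTCF, and TGTTTAC (forkhead type) in its reverse complement. In the slp1 to slp2 window they mark GGTCACACT (part of the sequence bound by M1BP), and in the CG43131 to RabGGTa window GCATACTT (part of the sequence bound by Su(Hw), another insulator protein). The C15 to sp3 window has no capitals, since it held none of the letters searched.
C15 to sp3, chr3R:21520300-21520400: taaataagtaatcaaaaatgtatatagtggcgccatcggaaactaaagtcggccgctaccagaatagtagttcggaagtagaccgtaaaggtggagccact
mtSSB to tara, chr3R:16222430-16222530: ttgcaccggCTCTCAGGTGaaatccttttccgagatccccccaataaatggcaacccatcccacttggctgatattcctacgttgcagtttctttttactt
jp to brwl, chr2L:9567462-9567562: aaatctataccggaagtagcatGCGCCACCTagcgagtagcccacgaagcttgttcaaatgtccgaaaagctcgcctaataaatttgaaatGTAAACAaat
slp1 to slp2, chr2L:3832467-3832567: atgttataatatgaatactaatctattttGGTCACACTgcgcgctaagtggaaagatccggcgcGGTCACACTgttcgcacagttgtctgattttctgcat
CG43131 to RabGGTa, chr3R:5113221-5113321: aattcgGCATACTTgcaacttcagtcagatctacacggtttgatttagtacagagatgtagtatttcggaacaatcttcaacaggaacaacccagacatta

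TACGTG, a longer form of the core, lay within 50 bp of the summit in 3 members, shown because it includes the known core of Trh and Tango; the capitals mark it on either strand. Their signal values were 117, 84.1 and 78.9, against a median of 105 for the 260. The first of them lay 1272 bp from a TSS, the second 848 bp and the third 900 bp.
CG7573 to CG6168, chr3L:11318926-11319026: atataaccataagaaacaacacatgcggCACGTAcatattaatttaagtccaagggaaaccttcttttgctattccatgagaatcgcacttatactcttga
RasGAP1 to CG10809, chr3L:9856083-9856183: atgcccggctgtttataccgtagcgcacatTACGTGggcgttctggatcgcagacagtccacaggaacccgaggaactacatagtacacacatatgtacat
CG11964 to ich, chr3R:8945870-8945970: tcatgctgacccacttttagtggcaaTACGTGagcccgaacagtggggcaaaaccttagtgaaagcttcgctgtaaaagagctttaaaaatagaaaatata

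A pair of other short sequences was more frequent at the intergenic summits than 400 bp to their sides, and windows with them are shown next, with capitals on AGTGTA in the noc and CG17896 windows and on AAAACT in the Sol1 window. The Sol1 window, with a signal of 224, is also that of the strongest member with the ACGTG core, which stands in capitals 23 bp from the summit. Other letters searched are left in lower case in these windows. AGTGTA and AAAACT were picked after the summits had been searched, so no test is given for them, and no factor is assigned to them.
noc to CG33648, chr2L:14505176-14505276: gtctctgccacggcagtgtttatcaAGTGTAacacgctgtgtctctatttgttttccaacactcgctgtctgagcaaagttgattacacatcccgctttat
CG17896 to CG17778, chrX:493955-494055: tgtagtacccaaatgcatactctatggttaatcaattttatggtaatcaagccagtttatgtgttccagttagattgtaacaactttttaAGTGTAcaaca
Sol1 to Cyp9f2, chr3R:12403085-12403185: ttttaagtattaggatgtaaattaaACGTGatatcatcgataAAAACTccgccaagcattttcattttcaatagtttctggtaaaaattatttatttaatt

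The ACGTG core stood in 19 of 260 intergenic windows (7.31%, exact 95% binomial interval 4.46 to 11.2%). It stood in 6.6% of the 2062 windows of the other peaks, in 8.85% of 520 windows centred 400 bp to either side of the members, and in 7.73% of 355875 windows of the same length laid over all intergenic sequence that met the distance rule. Members and other peaks did not differ past the threshold (two-sided Fisher's exact test, p = 0.692, and 0.755 after Benjamini-Hochberg adjustment over 12 sequences). TACGTG was found in 1.15% of the members, against 2.31% of the flanks and 2.14% of all intergenic windows. The core was thus no more frequent at the summits than beside them in either form. All searches covered both strands, and a match describes letters, not an occupied site.

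None of the 12 sequences tested differed between intergenic and other peaks after adjustment. The DRE core TATCGATA, bound by the promoter factor Dref, was in 1 member (0.385%) and in 2.13% of the other peaks, where 3.36% of the promoter peaks held it (exact p = 0.0544, adjusted p = 0.551). The Zelda sequence CAGGTAG was in 3 members (1.15%) and 0.339% of the other peaks (exact p = 0.0919, adjusted p = 0.551). The forkhead-type TGTTTAC was in 2.31% of the members and 4.46% of the others, and 6.14% of the peaks inside transcripts. GAGAG was in 8.08% of the members, 9.51% of the others, 14.4% of the members' flanks and 11% of all intergenic windows. CACGTG was in 0.385% of the members and 1.02% of the others, and CACCTG in 3.08% and 2.09%. The GATA sequence AGATAAG was in 1.92% and 1.36%, the octamer ATGCAAAT in 2.69% and 1.99%, and the AP-1 sequence TGACTCA in 0.385% and 1.07%. The Grainyhead sequence ACCGGTT was in 0 of 260 members, which allows a share of up to 1.41% (upper end of the exact interval), and in 0.242% of the others.

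Some sequences searched later stood out from the flanks, as a description. The summit windows were poorer in GC than the flanks (34.8% against 42.4%), and the part of base composition in the share of any sequence was not tested. AGTGTA was in 37 members (14.2%, interval 10.2 to 19.1%), against 4.23% of their flanks, 3.79% of all intergenic windows and 6.84% of the other peaks, whose own flanks held it in 3.83%. Its share was 17.8% on chromosome arm 3L and 12.4% on the other arms. By signal, it was 10.8% in the stronger 130 members and 17.7% in the weaker 130. AAAACT was in 59 members (22.7%, interval 17.7 to 28.3%), against 10.2% of the flanks, 12.8% of all intergenic windows and 16.4% of the other peaks. GCGCCACCT was in 4 members (1.54%), 2 of them among the 15 strongest, against 0.0464% of all intergenic windows and 0.533% of the other peaks. GCATACTT was also in 4 members, against 0.482% of all intergenic windows and 0.727% of the other peaks. GGTCACACT was in 1 member, the slp1 to slp2 peak printed above with its 2 copies, and in 0.0444% of all intergenic windows.

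The base composition at the summits differed from that beside them, in members and other peaks alike. The mean GC content of the windows at the summit was 34.8%, against 42.4% in the flanking windows, and it was lower than the flanks in 186 of 260 members. The other peaks showed the same direction, with 33.2% at summits and 44.2% beside them, and a lower value in 1672 of 2062. Lower GC at the summit was thus not particular to the members. Windows that were soft-masked as repeats over more than 50 bp made up 10.8% of the members, while 26.7% of the bases of the eligible intergenic sequence were masked. Summits in an annotated transposable element numbered 2 (0.769%), where such elements cover 10.9% of that sequence. The share of this sequence on which reads can be placed was not determined.

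Signal values of the intergenic peaks ran from 74.5 to 657 with a median of 105, against a median of 111 for all other peaks, 116 for promoter peaks and 103 for peaks inside transcripts. Above the median of the whole list lay 116 of 260 members (44.6%, exact interval 38.5 to 50.9%) and 50.7% of the others, a difference of -6.06 percentage points that did not pass the threshold (two-sided Fisher's exact test, p = 0.0754, adjusted p = 0.151 over 2 tests). In the signal of replicate 1 the shares were 43.4% and 50.8% (exact p = 0.0284, unadjusted), and in that of replicate 3 they were 45.6% and 50.6% (exact p = 0.159). Peaks are not replicates, and these p-values describe this list. Among the 100 strongest peaks of the list 6 were intergenic, and among the 500 strongest 47.

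A summit within 100 bp was present in the relaxed lists of both replicates for 246 of 260 members (94.6%) and for 94.1% of the others (two-sided Fisher's exact test, p = 0.888). Replicate 1 alone had 10 of the remainder and replicate 3 alone had 4. Across the 246 members in both lists the log2 signals of the replicates had Pearson's r of 0.66 and a Spearman rank correlation of 0.533, and across 1941 other peaks 0.777 and 0.682. These correlations describe peaks that had all passed IDR and share a control, and are not tests. The medians were 63.7 in replicate 1 and 42 in replicate 3.

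**Figure D1:**
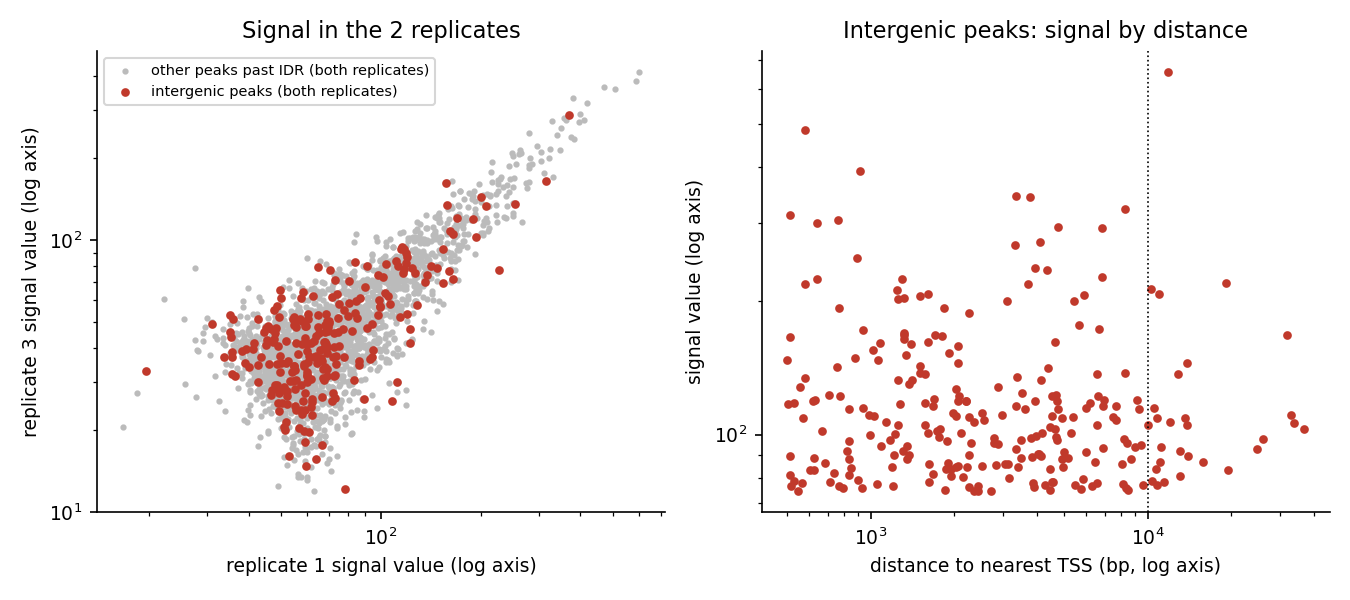
Left, signal value in replicate 1 (x, log axis) against replicate 3 (y, log axis) for intergenic peaks with a summit in both lists (246, red) and other such peaks (1941, grey). Right, signal value (y, log axis) of the 260 intergenic peaks against the distance to the nearest TSS (x, bp, log axis), with a dotted line at 10000 bp; the strongest peak, at 657, lies beyond the line.

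The strongest intergenic peak stood between Su(z)2 and CG13323 on 2R (summit 13035362), with a signal of 657, rank 10 of the whole list, and 369 and 288 in replicates 1 and 3. Su(z)2 encodes a protein of the Polycomb group, and the summit was 27451 bp from its transcripts and 9333 bp from those of CG13323. Psc, the Polycomb group gene beside it, neighboured another of the 15 strongest members at 7700 bp, with a signal of 294 (194 and 103 in the replicates). The second member by signal, 578 bp from sp3 and 7536 bp from the homeobox gene C15, had 486 (314 and 165). Both replicates thus placed these peaks far above the members' medians.

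A further pair of strong members lay upstream of tara, which encodes the nuclear protein Taranis. The stronger had 393 (254 and 136 in replicates 1 and 3) at 3171 bp from tara, and the weaker had 250.4 (154 and 92.4) at 1158 bp. For both the nearest TSS belonged to a long non-coding RNA, CR45643. The mtSSB gene on the far side, for a mitochondrial single-stranded DNA-binding protein, had a promoter peak.

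Among the other strong members, the peak between the 3′ ends of blw (a subunit of ATP synthase) and CycB (cyclin B) had a signal of 345. The gap there was only 1340 bp, and the nearest TSS was 3345 bp away. A peak 12407 bp from chinmo, a BTB zinc finger gene of neuronal timing, had 323. A peak 16890 bp from the homeobox gene Optix, but 638 bp from the TSS of another gene, had 299.7. The peak 3332 bp from foxo, the forkhead factor of insulin signalling, had 267. The peak 3923 bp from the zinc finger homeobox gene zfh2, on chromosome 4, had 237. It was the weakest of the 15 strongest members.

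The strongest members also differed in width. Most peaks of the list were 400 bp wide, and 18 members (6.92%) were narrower, as were 7.23% of the others. The median signal was 296 in the narrow members and 102 in those of 400 bp, and 13 of the 15 strongest were narrow. None of the 18 held ACGTG, but only 7.31% of all members did, so a count this small does not set them apart. How the caller set these widths is not given in the sources used here.

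Members were most frequent near genes, for the length of sequence available. The median distance to the nearest TSS was 2520 bp (exact 95% interval of the median 2069 to 3360 bp), with quartiles of 1268 and 5525 bp and a maximum of 36656 bp. From 500 to 1000 bp there were 49 members, or 17.3 per Mb of intergenic sequence at that distance. The density was 12.7 per Mb from 1000 to 2000 bp, 9.25 from 2000 to 5000 bp, 5.86 from 5000 to 10000 bp and 4.41 from 10000 to 20000 bp. Over 20000 bp from any TSS it was 0.775 per Mb, from 6 members in 21.4% of the eligible sequence. The density fell at each step of distance. The sequence counted includes whole 1 Mb bins without a peak of any kind past IDR. Examples are the bin at 26 Mb of 3L, with 828 kb eligible, and that at 3 Mb of 2R, with 814 kb. The part of such bins in the fall was not tested.

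**Figure D2:**
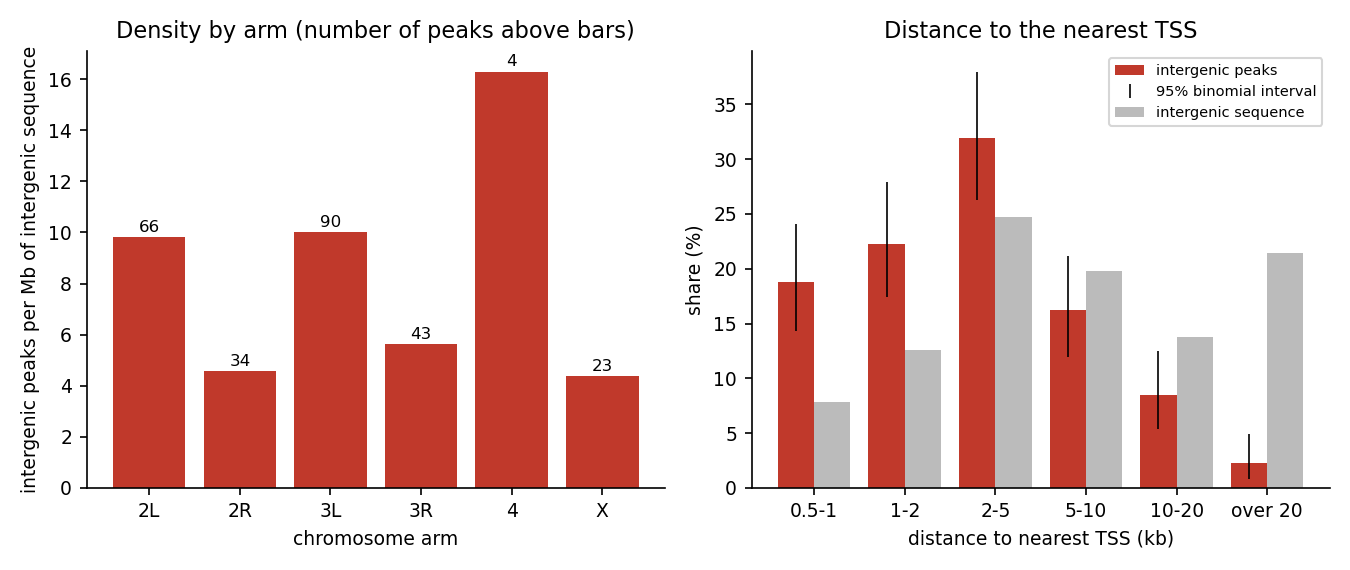
Left, intergenic peaks per Mb of eligible intergenic sequence on each chromosome arm, bins without any peak included, with the number of peaks above each bar. Arms 3L and 2L hold the most peaks, and chromosome 4 has the highest density from 4 peaks. Right, share (%) of the 260 peaks (red, with exact 95% binomial intervals) and of the eligible sequence (grey) by distance to the nearest TSS in kb; the red bars stand above the grey up to 5 kb and below them beyond.

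Over 10 kb from any TSS lay 28 members (10.8%, exact interval 7.28 to 15.2%), where 35.1% of the eligible sequence lies. All 28 had a summit in both replicates, 14 were on 3L, and their median signal was 104, against 106 for the other members. By signal the far members were therefore ordinary ones, apart from the Su(z)2 peak and 3 others over 200. Of those, the peaks beside hng3 had 213 and 207, and a peak in the NijA gap had 219.9.

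The gap between NijA and CG43245 held 4 of the 6 members over 20 kb from any TSS, the farthest of all among them. They lay 36656, 32991, 31848 and 26177 bp from a TSS, with signals of 103, 111, 168 and 97.7, and the member with 219.9 stood in the same gap at 19130 bp. The other 2 stood beside a tracheal gene and between death genes. In the 117057 bp between vvl, a POU factor of tracheal cells, and Prat2, a single member had a signal of 106 (61.8 and 42 in replicates 1 and 3), 29088 bp from vvl. In the gap between the death genes grim and rpr a member had 92.8 (45.7 and 48.4), 44316 bp from grim and 48802 bp from rpr. Among members at shorter distances, still over 10 kb, one between the FGF ligand genes pyr and ths had 105 (55.6 and 47.9), and a pair beside ems, a homeobox gene of the head and spiracles, had 92.1 and 89.5. The member 15852 bp from the nearest TSS of the head gene oc had 87 (49.8 and 37.5). Outside the NijA gap, the values named here lay at or below 106, near or under the median of the 260.

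The 260 members fell into 202 gaps between annotated transcripts. Most gaps, 162, held 1 member, and 40 gaps held 2 or more, with 98 members in all. The protein-coding genes on either side stood a median of 19090 bp apart, from 377 to 117057 bp. For 82 members the nearest TSS belonged to a non-coding gene. Another member lay within 10 kb of 104 of the 260, so the members are not independent in position.

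Gaps with 3 or more members numbered 9 and held 36 of them. The widest, 75047 bp between NijA (Ninjurin A, a membrane protein of the tissue damage response) and CG43245 on 3L, held 6 members with signals from 97.7 to 219.9. All 6 had a summit in both replicates, and they lay within 34595 bp on the CG43245 side of the gap. The gap between the non-coding CR44363 and CG7560 on the same arm held another 6, with signals from 85.9 to 173 and 5 of them in both replicates. Between robo2, a receptor of the guidance cue Slit, and CG43401 were 4 members from 74.8 to 112. Another 4 stood between the non-coding CR44603 and CR45695, which lie between RFeSP and chinmo, from 75.7 to 323. Nearer to chinmo, past CR45695, were a further 2 members with 162 and 116. A group of 4 stood beside scyl, an inhibitor of TOR signalling, from 74.9 to 114. The T-box genes Doc2 and Doc1 of the dorsal and cardiac mesoderm had 3 between them, from 77.7 to 137. The gaps COX7AL2 to CG31668, RasGAP1 to CG10809 and CR45251 to CG6163 held 3 each, with highest signals of 343, 224 and 114. Close summits were counted apart, and 12 of all members lay within 500 bp of another. Such a pair lay 640 and 848 bp from a TSS in the RasGAP1 gap, and 4733 and 4935 bp in the CR45251 gap. Counted as a single site, each pair would leave its gap below 3 members. The CR44363 gap also held such a pair, at 8262 and 8063 bp. The 9 gaps and 36 members thus depend on this way of counting.

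**Figure D3:**
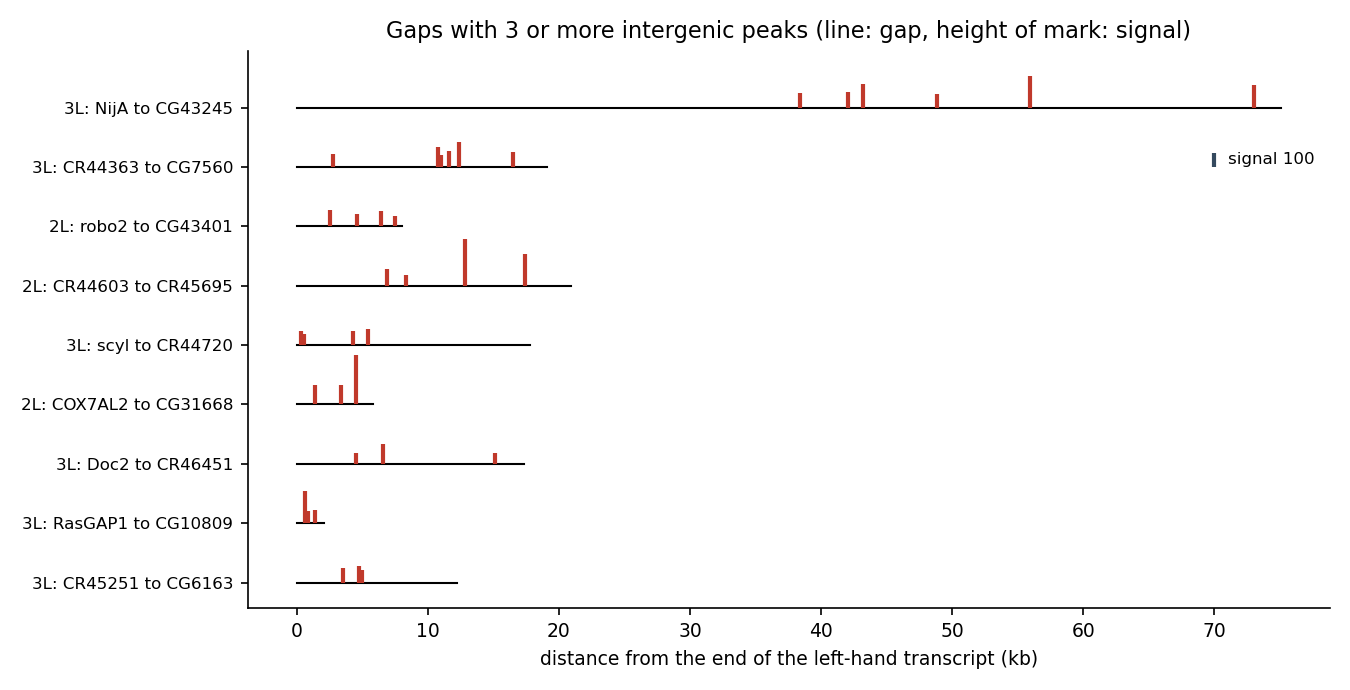
The 9 gaps between neighbouring transcripts that held 3 or more intergenic peaks, each a line from the end of the left-hand transcript (x, kb), with a red mark at every summit whose height is the signal value (the blue mark is a signal of 100). The 6 peaks of the NijA gap sit in its right-hand part, and the tallest marks are in the CR44603 and COX7AL2 gaps.

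By arm, 3L held 90 members and 2L 66, against 43 on 3R, 34 on 2R, 23 on X and 4 on chromosome 4. Per Mb of eligible sequence this was 10.05 on 3L, 9.83 on 2L, 5.62 on 3R, 4.57 on 2R, 4.39 on X and 16.3 on chromosome 4, with 7.17 over all arms. The eligible sequence includes bins without any peak past IDR, such as those from 0 to 5 Mb of 2R and 23 to 28 Mb of 3L. Their part in the order of the arms was not tested. The peaks that were not members had a narrower range over the large arms, from 20.1 to 24 per Mb of the remaining sequence. As a share of all peaks of the arm, which does not use that length, intergenic peaks were 17.6% on 3L and 14.1% on 2L. The share was 8.52% on 2R, 8.04% on 3R and 5.79% on X.

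A single stretch of 3L held 30 of the 90. Its bounds, summits 10735269 and 11449039 (714 kb, of which 357 kb eligible), were chosen from the positions of the members, so its density is a description. The rest of 3L had 6.98 members per eligible Mb and all arms without the stretch 6.41, bins without any peak included. The stretch had 84.1. Of its members 28 had a summit in both replicates, and their signals ran from 74.9 to 219.9 with a median of 106, near that of all members. Among the strongest peaks of each replicate, taken to the number past IDR, it held 29 intergenic peaks in replicate 1 and 35 in replicate 3. That was 81.3 and 98.1 per eligible Mb, against 8.25 and 7.91 on the rest of the arm. Peaks of every kind past IDR stood at 68.6 per Mb there, against 16.9 on the rest of the arm. The relaxed pooled list, which includes background, was also denser, at 412 per Mb against 166, and its part in the density of members was not tested. The members of the NijA, CR44363, scyl and CR45251 gaps all lie in this stretch.

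**Figure D4:**
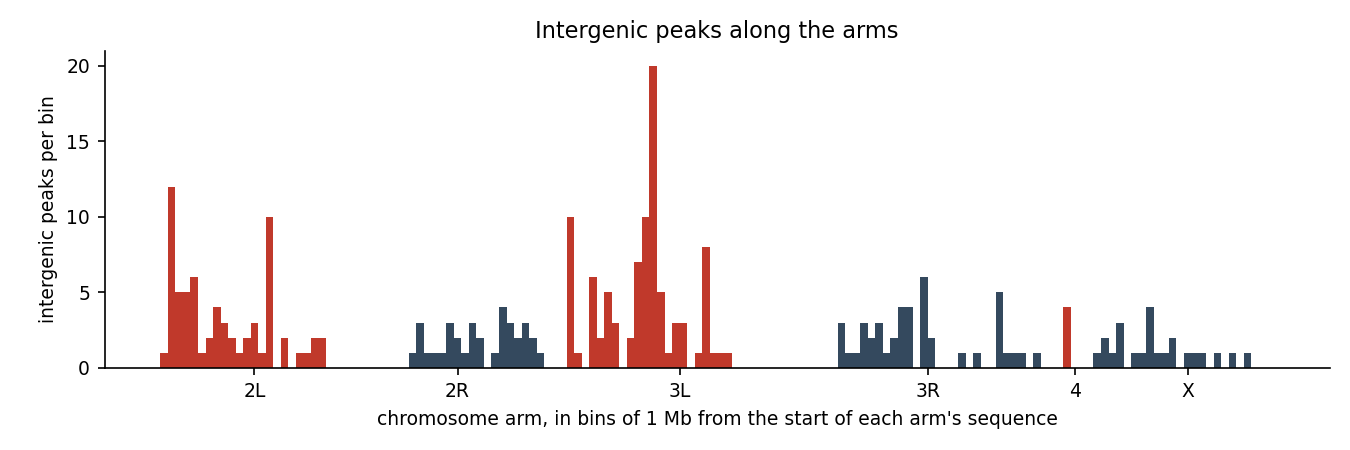
Number of intergenic peaks (y) in each bin of 1 Mb along the chromosome arms (x, arms in alternating colours). Of 138 bins 46 hold none, the median is 1, and the tallest bar, 20 peaks, is on 3L, followed by 12 and 10. Some of the empty bins, such as those at the start of 2R, hold no peak of any kind past IDR.

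The 260 members had 351 distinct protein-coding genes as nearest neighbours on the left or right, 2.52% of the 13945 annotated. The neighbours were divergent, with both 5′ ends towards the member, for 84 members (32.3%, interval 26.7 to 38.4%), where such gaps make up 24.7% of the eligible sequence. They were convergent for 58 (22.3% against 23.2%) and in tandem for 118 (45.4% against 52.1%). The nearest gene end was a 5′ end for 141 members (54.2%, interval 48 to 60.4%), against 49.7% of the sequence.

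Of the 351 neighbours 39 had a summit within 500 bp of a TSS of their own (11.1%), near the 11.8% of all protein-coding genes that had. Counted by member, 57 of 260 (21.9%, interval 17 to 27.5%) had such a neighbour on at least 1 side, and 3 had it on both, while gaps with such a neighbour made up 7.83% of the eligible sequence. A neighbouring gene with a promoter peak was thus about as common as among all genes, while members per Mb were more numerous in gaps that border such a gene, at 21.1 against 7.17 overall. Members share neighbours, the gaps differ in length, the overall value includes bins without any peak, and no test was made. Among the 15 strongest, mtSSB, blw, brwl (neighbour of the jp peak) and RabGGTa had a promoter peak.

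Developmental genes were described by 16 lists, of which 15 held 218 distinct genes without the ribosomal protein genes. Neighbours of a member were 29 of those 218 (13.3%), against the 2.52% of all protein-coding genes, and they flanked 40 members (15.4%). Such genes have long intergenic flanks, so the number of members per Mb of those flanks is given beside the counts, against 7.17 overall. The overall value includes bins without a peak of any kind past IDR. Their part in the difference between a list and the overall value was not tested. No list was tested.

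Of 29 tracheal regulators 5 (17.2%) flanked a member (aop, hth, noc, sty and vvl), with 12 members at 16.9 per Mb. The strongest stood beside noc, a zinc finger gene of tracheal branching, with 226 (154 and 69.6 in replicates 1 and 3) at 11207 bp. Others beside noc had 162 (119.9 and 53.6) at 8743 bp and, on its other side, 133 (91.2 and 47.5) at 29617 bp. The nearest TSS of noc lay 14367, 11903 and 29617 bp from these members. Another gene had a nearer TSS in each case, at 6857, 4646 and 4129 bp. Beside sty, the gene of Sprouty, an inhibitor of FGF and EGF receptor signalling, members had 172, 141 and 119. They lay 6129, 18511 and 4864 bp from its transcripts and 22937, 35319 and 21672 bp from its nearest TSS. A TSS of another gene was nearer to each, at 936, 4374 and 2201 bp. Beside aop, which encodes the ETS repressor Yan, they had 143 and 114. The members beside the homeobox gene hth had 94.9 and 76.9, each in a different single replicate and 199 bp apart. Of 22 genes of the tracheal tube wall and lumen only shg, which encodes E-cadherin, flanked members, with 116 and 89.8 (16.9 per Mb). None of 12 bHLH-PAS genes, the family of Trh and Tango themselves, did.

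Genes of the other tissues that need Trh were also among the neighbours. Of 16 salivary gland and duct genes 3 flanked a member (18.8%), at 12.8 per Mb from 3 members. The Pax genes eyg and toe share a member with 115, and the close pair beside hth counts on this list too. Of 13 posterior spiracle genes 4 did (30.8%), at 10.9 per Mb. They were cv-c (110.2), ems (92.1 and 89.5), and the JAK/STAT ligand genes upd1 and upd3, which share a member (83.7). The cv-c member lay 22725 bp from the nearest TSS of cv-c and 1026 bp from that of another gene. Of 24 EGFR and FGF pathway genes, a list of no single tissue, 4 flanked a member at 20.3 per Mb, namely aop, sty, pyr and ths. The members beside aop and sty are those already counted with the tracheal regulators.

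Lists of patterning and other tissue genes ranged widely. Of 17 segment polarity genes 6 flanked a member (35.3%), at 22.5 per Mb. The forkhead genes slp1 and slp2 had 235 (161 and 77.1 in replicates 1 and 3) and 84.6 between them, and the Wnt receptor gene fz had a member at 1809 bp with 167 (107 and 58.4) and a weaker one at 1610 bp (61.9 and 30.9 in the replicates). The T-box gene mid had 105, and the member beside the Hedgehog receptor gene ptc had 66.6 and 35.8 in replicates 1 and 3. The gap between Wnt4 and the Wnt ligand gene wg held a member with 87 at 11040 bp from wg. It held another with 83.6 at 25560 bp from wg, which lay nearer to Wnt4, at 4428 bp. Of 22 gap and pair-rule genes 5 did at 12.1 per Mb (ems, hry, oc, slp1 and slp2). Of 22 mesoderm and muscle genes 3 did at 22.5 per Mb, among them bin, the forkhead factor of visceral mesoderm, with 164 (91.2 and 80.0) at 1318 bp, which is also the only neighbour among 14 gut and fat body genes (3.73 per Mb).

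Of 12 Hox genes only abd-A flanked a member, with 168 (103 and 64), at 6.72 per Mb. It lay 8324 bp from the transcripts of abd-A and 29215 bp from its nearest TSS. The TSS of another gene was nearer, at 1710 bp. Of 17 dorsal-ventral genes only the LIM homeobox gene tup did, with 116, at 7.28 per Mb. Of 20 neuroblast and sensory organ genes the homeobox genes Dr and pros did, with 83.8 at 1895 bp and 80.6 at 59271 bp, at 8.18 per Mb. None of 13 hemocyte genes and none of 19 cuticle and Osiris genes flanked a member. Of 85 ribosomal protein genes only RpS23 did, with 81.2, at 1.78 per Mb. The lists with 0 neighbours had short flanks, of 28.2 to 91.1 kb in all.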

How the data were processed

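Peaks were taken from 4 deposited dm6 lists in narrowPeak layout: the list past IDR and, for matching, the relaxed lists of replicate 1 (28743 peaks), replicate 3 (30000) and the pooled replicates (21025), per the deposited file lists. The signal value is a score given by the authors' peak caller. The deposited −log10 q value ran from 2.8 to 3.48. The aligner, the caller and its IDR cutoff were not given in the sources used here. The depth per sample is unknown, so intervals cover counting error only.

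Summits were placed, 1-based, on the release 6 genome with Ensembl 115 (BDGP6.54) annotation on arms 2L, 2R, 3L, 3R, 4 and X. Eligible sequence met the same distance rule. Fisher's exact tests and exact (Clopper-Pearson) 95% intervals used scipy 1.17.1, with numpy 2.4.6, pandas 2.3.3 and Python 3.11.15, checked on simulated data. Sequences were searched on both strands of windows reaching 50 bp to each side of the summit. Named genes flank the 15 strongest and 10 farthest members, members of gaps with 3 or more, list genes (up to 6 members each), members with TACGTG, members at the distance limit and those with the largest rank differences between replicates (1 of which is not reported here); a few other far members and those with printed sequences were chosen after their values were seen. Members and lists were chosen with earlier results of these data known. Alternatives varied the distance, annotation, summit position, replicate, strength, window and match distance.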

Additional observations from a re-analysis of the deposited data

How the results depend on the processing

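Over 7 results, 31 of 41 alternatives kept the value on the same side of its threshold or within its limits. The 260 members became 116 among the peaks above the median signal, and the other settings, 250 and 1000 bp included, gave 211 to 364. With each replicate's strongest peaks alone the number was 269 to 298. The share above the median signal passed the threshold with members over 1000 bp from a TSS (43.1%, exact p = 0.043) and in replicate 1 alone, and ranged from 43.4% to 45.6% over the single replicates. The median distance was 3940 bp from protein-coding TSSs only and 2050 bp in members above the median signal. Members over 10 kb numbered 66 from protein-coding TSSs only, 70 at over 5 kb and 6 at over 20 kb. Members beside a gene with a promoter peak were 12.3% with promoters of 250 bp and 33.1% with 1000 bp, which counts some members as promoter peaks themselves. Leaving out the dense stretch of 3L, chosen after seeing the data, changed no call and left 230 members, 23 of them over 10 kb.

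The lists hold no depth, so weak sites cannot be told from absent ones, and the share of intergenic sequence open to read placement is unknown. Both replicates share a control, and a single condition was assayed.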

Other observations

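Ranked among the 246 members with a summit in both replicates, a few stood far apart between them. The member between 18w and CG11041 on 2R (summit 20130516) had 78.3 in replicate 1 (rank 71) and 12.2 in replicate 3 (rank 246, the last). The member between CG11349 and CG7465 had 112 (rank 38) and 30.0. In the opposite direction, the member between CG12643 and alpha-Man-Ia had 35.2 (rank 243) and 53 (rank 70). The members between CG12523 and CG42831 and between CG44362 and CG7560, both in the dense stretch of 3L, had ranks 237 and 200 in replicate 1 and 79 and 44 in replicate 3.

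Among the strongest peaks of each replicate, taken to the number past IDR, the X chromosome held 15 of 269 intergenic peaks in replicate 1 and 32 of 298 in replicate 3, while 3L held 100 (37.2%) and 103 (34.6%).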
